A study of Mus musculus with 11 samples.

Results

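The transcription factor genes Esrrb, Tfcp2l1, Nr5a2 and Nr0b1 were followed through 5-hydroxymethylcytosine (5hmC) capture data from mouse embryonic stem (ES) cells and epiblast-like cells (EpiLC). The members were all 2 kb tiles that overlap the GRCm38 span of any of the 4 genes or the 2 kb on either side. This gave 182 of 1362779 tiles, with 83 in Esrrb, 32 in Tfcp2l1, 62 in Nr5a2 and 5 in Nr0b1. All 182 were among the 1183888 tiles that passed the filter on low and high means. The rule uses gene names and positions, and the genes were picked with earlier results of these data known.

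The libraries came from HMCP-seq, a capture kit that enriches DNA fragments carrying 5hmC, and numbered 11. Every library was made from wild-type cells. TET_WT is the unedited parent of a line lacking Tet1, Tet2 and Tet3, and DNMT_WT is the unedited parent of a line lacking Dnmt1, Dnmt3a and Dnmt3b. DNMT_WT was sampled as EpiLC at day 2 (3 libraries), and TET_WT as ES cells in 2i/Lif at day 0 (3 libraries) and as EpiLC at day 1 (2 libraries) and day 2 (3 libraries). The knockout lines and embryoid bodies were not analysed here. Nothing in the labels tells whether replicates were grown as separate cultures, so the p-values measure the spread between these libraries, which may be technical. DNA capture does not measure transcripts, so the labelled cell types could not be checked against expressed markers.

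TET enzymes oxidise 5-methylcytosine to 5hmC, so 5hmC needs both prior methylation and TET activity, and in many cell types it lies over enhancers and gene bodies. Esrrb encodes an orphan nuclear receptor and Tfcp2l1 a CP2-family factor. Both belong to the transcription factor network that keeps mouse ES cells in the naive state, and expression of both declines on the way to the primed state. Nr5a2 encodes an orphan receptor that can replace Oct4 in reprogramming and can activate Oct4, and Nr0b1 (also called Dax1) encodes a receptor-like protein without a classical DNA-binding domain that acts mainly as a repressor.

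The deposited values are log2 RPKM, in which a tile's reads are divided by its length and by a library total. They are relative, so a change in the total 5hmC of a cell would not be seen. Between 7342015 and 51604034 reads per library were recovered from the values, and the shallowest was day 1 replicate 2. In each library they came to 2.32 times the total that the RPKM values imply, for a reason not known. RPM below are scaled to the recovered reads, so RPM and RPKM are not on 1 scale, while comparisons between libraries are unaffected. A tile without reads carries the value of 0.9 reads, which lies between −5.63 in day 0 replicate 1 and −2.81 in day 1 replicate 2. Day 0 replicate 2 stood apart from the other two day 0 libraries (r = 0.935 over tiles with each of them, against 0.957 between them). Differences at day 2 against day 0 are therefore also given without it where the call, direction or size turns on it.

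The windows before the starts are shown because they differ in CG content, and 1 start of each gene is given. Of the tiles that hold these 4 starts, only that of the Esrrb first start was called at day 2 against day 0, and differences between the starts were not tested. The sequences are the 250 bases before each RefSeq start (GRCm38.p6), written 5′ to 3′ on the gene's strand. Capitals mark each CG, the dinucleotide at which most mammalian cytosine methylation sits. They lie at chr12:86360867-86361116 (plus strand) for Esrrb, chr1:118627695-118627944 (plus) for Tfcp2l1, chr1:136953631-136953880 (minus) for the internal start of Nr5a2 and chrX:86191525-86191774 (plus) for Nr0b1.
Esrrb first start: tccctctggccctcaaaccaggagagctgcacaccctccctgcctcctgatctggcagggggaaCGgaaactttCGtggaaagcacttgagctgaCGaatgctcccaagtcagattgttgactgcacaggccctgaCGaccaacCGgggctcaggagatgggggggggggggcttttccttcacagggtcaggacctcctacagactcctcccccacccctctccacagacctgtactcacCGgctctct
Tfcp2l1 start: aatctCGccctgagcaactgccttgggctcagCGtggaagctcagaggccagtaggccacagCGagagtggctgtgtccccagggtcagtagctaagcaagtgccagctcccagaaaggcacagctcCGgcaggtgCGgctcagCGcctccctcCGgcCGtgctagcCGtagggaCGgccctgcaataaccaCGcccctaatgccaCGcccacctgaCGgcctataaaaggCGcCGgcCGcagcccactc
Nr5a2 internal start: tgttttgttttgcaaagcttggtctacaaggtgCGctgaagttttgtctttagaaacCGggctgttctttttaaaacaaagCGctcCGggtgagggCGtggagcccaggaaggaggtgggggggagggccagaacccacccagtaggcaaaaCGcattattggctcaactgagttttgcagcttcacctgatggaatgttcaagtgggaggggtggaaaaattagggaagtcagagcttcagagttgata
Nr0b1 start: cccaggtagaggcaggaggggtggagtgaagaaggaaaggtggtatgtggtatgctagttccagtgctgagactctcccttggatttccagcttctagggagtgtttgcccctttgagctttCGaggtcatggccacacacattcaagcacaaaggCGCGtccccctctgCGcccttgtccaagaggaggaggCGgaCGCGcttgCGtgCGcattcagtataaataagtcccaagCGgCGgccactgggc

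The Tfcp2l1 window held 16 CG and the Nr0b1 window 11, against 6 each at the Esrrb first start and the Nr5a2 internal start. The median over 32851 RefSeq windows of the same length was 6. The internal start of Esrrb had 3 CG and the first start of Nr5a2 had 2. The letters AAGGTCA, the core of the element bound by ESRRB and NR5A2, occurred on neither strand of these 6 windows, and occur in 4.08% of all windows.

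At day 2 against day 0, 5hmC signal rose over Esrrb and Tfcp2l1 and did not pass the test over Nr5a2 and Nr0b1. A gene value is the mean log2 RPKM over the gene's tiles, and a call is a Benjamini-Hochberg adjusted p under 0.05 over all 20717 genes, from limma. By that rule 17.8% of genes were called, 15.3% higher and 2.51% lower, and 2 of the 4 members were called, both higher. The median difference over all genes was 0.09.

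Esrrb (chr12:86361117-86521628, plus strand) had gene values of −0.60, −0.10 and −0.46 log2 RPKM in the day 0 libraries, 0.05 and −0.01 at day 1, and 1.06, 1.08 and 1.05 at day 2. The day 2 libraries lay within 0.03 of each other and above every earlier library, and day 0 replicate 2 was the highest of its group. In 23.6% of all genes every day 2 library was above every day 0 library, with the reverse in 7.95%. The difference at day 2 against day 0 was 1.45 (SE 0.12, limma adjusted p = 1.53e-05), and it was 1.59 without day 0 replicate 2. Summed over its tiles and divided by all recovered reads of the library (RPM), Esrrb drew 193 ± 2.81 RPM at day 2 and 105 ± 12 at day 0 (SD, n = 3 each). Averaged on this linear scale the difference was 0.88 (log2, limma adjusted p = 4.77e-05), smaller than the mean of log2 values, in which low tiles weigh as much as high ones.

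Tfcp2l1 (chr1:118627923-118685168, plus strand) had values of −1.17, −1.26 and −0.95 at day 0, −0.60 and −0.76 at day 1, and −0.09, −0.12 and 0.13 at day 2. The 3 days did not overlap. Day 2 was above day 0 without overlap in 23.6% of all genes and below it in 7.95%. The difference at day 2 against day 0 was 1.10 (SE 0.16, limma adjusted p = 0.000517). In RPM the gene had 37.0 ± 1.08 at day 2 and 25 ± 1.49 at day 0 (SD, n = 3 each), and the linear average gave 0.57 (log2, limma adjusted p = 0.000554).

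Nr5a2 (chr1:136842562-136960448, minus strand) had values of 1.10, 0.89 and 1.02 at day 0, 0.99 and 1.16 at day 1, and 1.18, 1.23 and 1.24 at day 2. All day 2 libraries were above all day 0 libraries, as in 23.6% of genes, with the reverse in 7.95%. The difference of 0.21 (SE 0.09, 95% interval 0.02 to 0.40) did not pass (limma adjusted p = 0.123). Its RPM were 145 ± 1.86 at day 2 and 142 ± 7.48 at day 0 (SD, n = 3 each).

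Nr0b1 (chrX:86191775-86195947, plus strand) had values of −2.0, −3.45 and −2.71 at day 0, −1.57 and −2.95 at day 1, and −3.04, −2.58 and −2.31 at day 2. The days overlapped widely. The difference at day 2 against day 0 was 0.07 (SE 0.44, 95% interval −0.89 to 1.04, limma adjusted p = 0.948), and −0.29 without day 0 replicate 2. Its 5 tiles together drew 22 to 36 reads per library at day 2 and 14 to 70 at day 0.

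**Figure D1:**
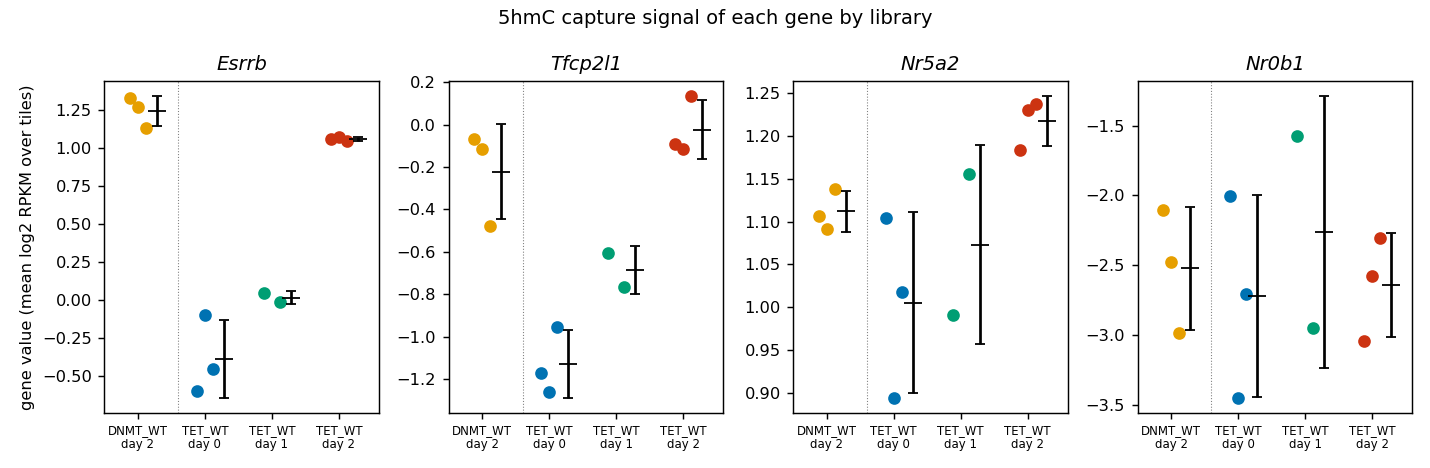
Gene value (mean log2 RPKM over the gene's 2 kb tiles, vertical axis, with its own range in each panel) in each library of DNMT_WT day 2 and of TET_WT day 0, 1 and 2 for the 4 genes; black marks are group means with SD. Esrrb and Tfcp2l1 reach means of 1.06 and −0.02 at TET_WT day 2, above all day 0 and day 1 libraries, while the Nr5a2 panel spans only 0.89 to 1.24 and the Nr0b1 groups overlap.

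At day 2 Nr5a2 averaged 1.22, Esrrb 1.06, Tfcp2l1 −0.02 and Nr0b1 −2.64 log2 RPKM, a scale adjusted only for tile length and library total. Levels were not adjusted for CG content or copy number, and Nr0b1 alone lies on chromosome X. At day 0 the averages were 1.01 for Nr5a2, −0.39 for Esrrb, −1.13 for Tfcp2l1 and −2.72 for Nr0b1. Each library of both days had this order, and no 2 neighbours in it overlapped within a day. In DNMT_WT Esrrb averaged 1.24 and Nr5a2 1.11, the reverse of their order in TET_WT. Among all genes, Esrrb stood at percentile 85.4 at day 2 and 48.1 at day 0, Tfcp2l1 at 53.9 and 32.3, Nr5a2 at 89.1 and 89.4, and Nr0b1 at 13.9 and 13.0.

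Tile by tile, day 2 against day 0, 8.01% of all tested tiles were called, 5.33% higher and 2.68% lower (limma, adjusted over all tiles). Esrrb had 50 of 83 tiles called higher and 2 lower, and Tfcp2l1 11 of 32 higher and 1 lower. Nr5a2 had 10 of 62 higher and 5 lower, and Nr0b1 0 of 5 in either direction. Median tile differences were 1.08 in Esrrb, 0.74 in Tfcp2l1, 0.08 in Nr5a2 and −0.06 in Nr0b1, against −0.05 over all tiles. With all libraries thinned to the shallowest, the tiles called higher numbered 20 in Esrrb, 3 in Tfcp2l1, 1 in Nr5a2 and 0 in Nr0b1, among 12956 tiles called higher in all in place of 63076. Without a variance trend they numbered 20, 4, 4 and 0.

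The gain in Esrrb was concentrated in the 3′ part of the gene. Of the 41 tiles nearest the first start, 14 were called higher, with a median difference of 0.20, and of the 42 tiles beyond 79 kb, 36 were called higher, with a median of 2.62. The near tiles averaged 1.24 log2 RPKM at day 2 and 0.84 at day 0. The far tiles averaged 0.89 at day 2 and −1.58 at day 0, and their gap to the near tiles narrowed.

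Within it lay an unbroken run of 18 tiles called higher, 36 kb long (chr12:86462001-86498000), from 101 to 137 kb downstream of the first start. It drew 27.1, 27.3 and 23.8 RPM at day 2, against 3.29, 5.16 and 3.08 at day 0, a ratio of means of 6.78. The lowest day 2 library was far above the highest day 0 library, but the run was built from tiles called higher in these libraries. The separation and ratios of this and the later runs follow from that choice and add no test. The day 1 libraries, at 5.18 and 6.44, lay close to day 0. In all the data 3042 runs of at least 3 such tiles held 0.942% of the tested tiles, and 18 tiles was the greatest length, reached by 2 runs. Runs were built under the main fit alone. At equal depth or without a variance trend, 20 Esrrb tiles were called higher in place of 50. Whether this and the later runs keep their length and rank under those settings was not tested.

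After 1 uncalled tile a second run of 12 tiles (chr12:86500001-86524000) reached the gene's end. It drew 41.0, 41.6 and 35.7 RPM at day 2, against 8.89, 11.9 and 9.33 at day 0. Of all runs, 9 were as long or longer. Shorter runs lay at 17 to 23 kb (3 tiles) and 89 to 97 kb (4 tiles), with ratios of 2.26 and 3.57.

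The 3 tiles of Esrrb with the largest gains are neighbours inside the 18-tile run, centred 117.9 to 121.9 kb from the first start. The first (chr12:86478001-86480000) held 24, 33 and 29 reads at day 2, against 2, 1 and 3 at day 0, a difference of 4.73 (SE 0.62, limma adjusted p = 2.37e-10). The third (chr12:86482001-86484000) held 138, 98 and 94 reads at day 2, against 9, 12 and 5 at day 0, with a difference of 4.50 (SE 0.34, limma adjusted p = 3.39e-24). All day 2 counts were above all day 0 counts, and the day 0 libraries were deeper. These tiles were picked as the largest gains, so this separation follows from the choice and adds no test. In 12.1% of all tested tiles every day 2 library was above every day 0 library, with the reverse in 11%.

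Esrrb has 2 annotated starts, both in tiles with signal at day 0. The tile of the first start had 2.96, 3.07 and 3.04 log2 RPKM at day 2, against 1.29, 2.23 and 2.19 at day 0, and rose by 1.12 (SE 0.17, limma adjusted p = 1.5e-07). It had the highest mean of all 83 tiles over the libraries. The tile of the internal start, centred 59.9 kb downstream, had 1.21, 1.27 and 0.93 at day 2, against 1.46, 1.12 and 1.22 at day 0, a difference of −0.13 that did not pass (limma adjusted p = 0.876). The 2 tiles called lower were centred at 29.9 and 39.9 kb, with differences of −0.91 and −0.78.

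**Figure D2:**
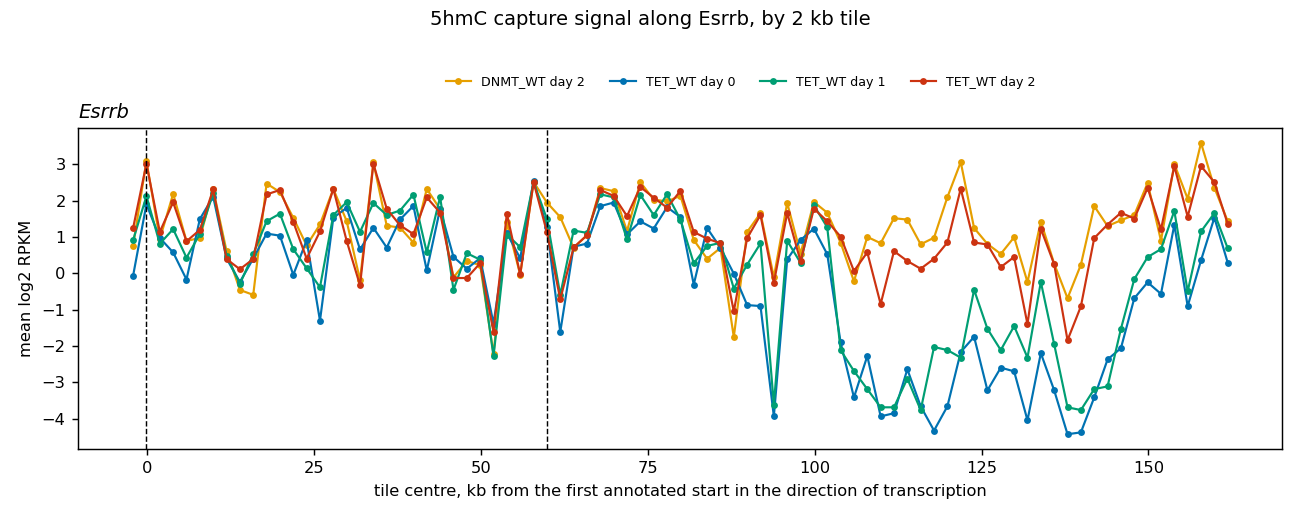
Group mean log2 RPKM of each 2 kb tile of Esrrb (vertical axis) against the distance of its centre from the first start in kb; the 4 lines are DNMT_WT day 2 and TET_WT day 0, 1 and 2, and dashed lines mark tiles that hold an annotated start. The lines mostly run together up to 89 kb and are farthest apart from 101 to 137 kb, where DNMT_WT and TET_WT at day 2 average 1.06 and 0.52 and TET_WT at day 0 and day 1 average −2.84 and −2.07.

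In Tfcp2l1 most of the gain lay at the other end. Of the 16 tiles nearest the start, up to 28 kb, 9 were called higher (median 1.93). Of the 16 tiles beyond, 2 were higher and 1 lower (median −0.17). The last tile, just past the gene's end (chr1:118686001-118688000), rose by 2.48 (limma adjusted p = 1.79e-10). The next tile, outside the window, rose by 1.81 (limma adjusted p = 5.78e-12). The near tiles averaged −0.25 log2 RPKM at day 2 and −2.52 at day 0, and the far tiles 0.20 at day 2 and 0.26 at day 0. At day 0 the 5′ part of Tfcp2l1 was thus the poor part, and at day 2 the 2 parts stood closer together.

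The near gain formed 2 runs. The run from 2 to 8 kb (chr1:118630001-118636000, 3 tiles) drew 3.70, 3.86 and 3.98 RPM at day 2, against 0.388, 0.268 and 0.546 at day 0, a ratio of 9.60. The run from 14 to 26 kb (chr1:118642001-118654000, 6 tiles) drew 6.69, 9.0 and 7.74 at day 2, against 2.07, 1.68 and 1.70 at day 0, a ratio of 4.30. The gap between the days in these runs follows from building them from tiles called higher.

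The largest gain of any tile in the 4 genes was inside the longer run, at chr1:118650001-118652000. It held 26, 31 and 31 reads at day 2, against 3, 0 and 0 at day 0, and its fitted difference of 5.21 (SE 0.74, limma adjusted p = 5.66e-09) depends on the value given to empty tiles. The tile of the start, with its CG-rich window, held 9, 4 and 7 reads at day 2, against 3, 10 and 2 at day 0. These counts overlap, and the difference of 1.45 (SE 0.83) did not pass (limma adjusted p = 0.383). The tile called lower, at 39 kb, had a difference of −2.17 (limma adjusted p = 0.0379), with 1, 4 and 12 reads at day 2, against 27, 32 and 25 at day 0.

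Nr5a2, whose gene value was nearly flat, was not flat along its length. It gained in 2 runs of 3 tiles within 14 kb of its first start, on either side of the tile that holds its internal start. The run at chr1:136946001-136952000 drew 4.95, 6.82 and 6.03 RPM at day 2, against 1.65, 1.37 and 0.749 at day 0, a ratio of 4.72. The run at chr1:136954001-136960000 drew 6.91, 6.53 and 5.88 at day 2, against 2.31, 2.21 and 1.86 at day 0, a ratio of 3.03. In both runs every day 2 library was above every day 0 library, which follows from building them from tiles called higher.

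Between them the tile of the internal start stayed low. It held 3, 7 and 5 reads at day 2, against 11, 5 and 1 at day 0, and its difference of 1.08 (SE 0.81) did not pass (limma adjusted p = 0.574). The tile of the first start had 0.69, −0.03 and 0.25 log2 RPKM at day 2, against 0.79, 0.27 and 0.65 at day 0, and its difference of −0.27 (SE 0.40) did not pass either (limma adjusted p = 0.829). The strongest tile of Nr5a2 (chr1:136930001-136932000) had 2.57, 2.51 and 2.57 at day 2, against 2.59, 2.8 and 2.41 at day 0, within the spread of the libraries.

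The remaining 4 higher tiles of Nr5a2 were scattered through the body. The 5 lower tiles were centred between 55.4 and 107.4 kb from the first start, with differences from −0.60 to −1.22. Gains near the starts and losses in the body thus stood in the same gene, and the gene mean combined them. The number of lower tiles was 1 after median centring and 8 after quantile normalization.

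Nr0b1 is short and poor in signal. Its richest tile, which holds the start, had −0.27, −0.42 and −0.47 log2 RPKM at day 2, against −0.77, −2.10 and −0.95 at day 0. The day 2 libraries were all higher, as in 12.1% of all tested tiles, with the reverse in 11%. The difference of 0.89 (SE 0.56) did not pass (limma adjusted p = 0.459). The other 4 tiles had differences between −0.57 and 0.65.

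**Figure D3:**
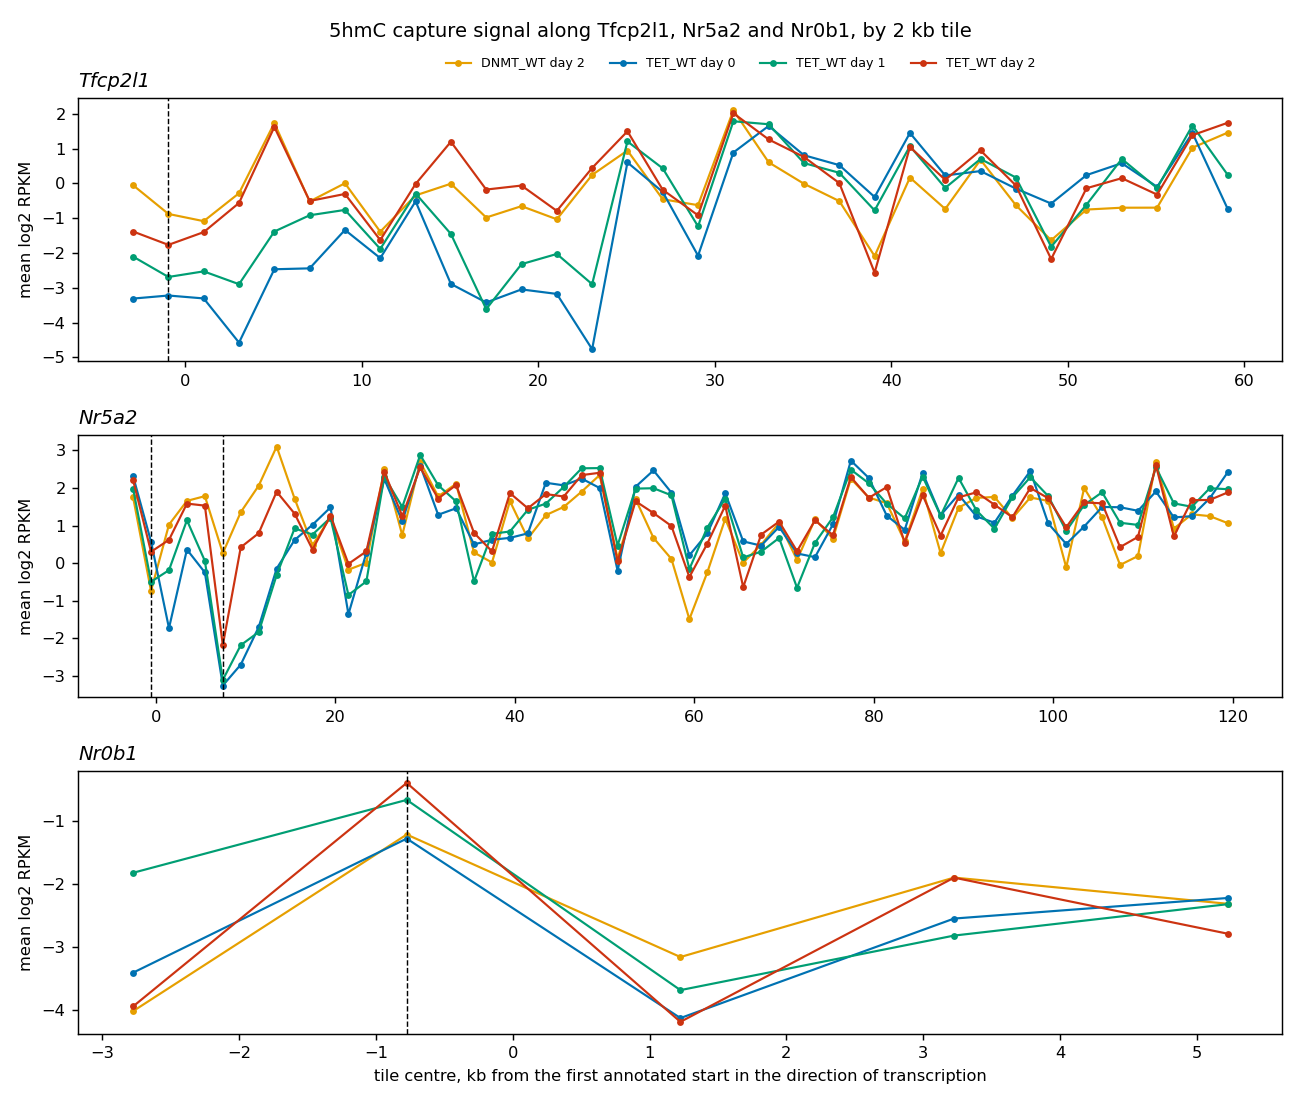
Group mean log2 RPKM of each 2 kb tile (vertical axis, its range differs between panels) of Tfcp2l1, Nr5a2 and Nr0b1 against the distance of its centre from the first start in kb; lines are DNMT_WT day 2 and TET_WT day 0, 1 and 2, and dashed lines mark tiles that hold a start. Tfcp2l1 separates mainly up to 28 kb and again in its last tile. The TET_WT days of Nr5a2 separate within 14 kb, on either side of the tile of its internal start. That tile averages −2.19 in TET_WT at day 2 and 0.27 in DNMT_WT. Nr0b1 shows no run of called tiles.

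Set side by side as a description, the genes that gained and those that stayed were compared by their tiles' day 0 levels. The median day 0 level over all tested tiles was −1.62 log2 RPKM. Below it lay 23 of 83 tiles in Esrrb, 13 of 32 in Tfcp2l1, 4 of 62 in Nr5a2 and 4 of 5 in Nr0b1. Of these low tiles, 22 of 23 were called higher in Esrrb, 8 of 13 in Tfcp2l1, 3 of 4 in Nr5a2 and 0 of 4 in Nr0b1, and 1.60% of all low tiles were. Of the tiles at or above the median, 28 of 60 were called higher in Esrrb, 3 of 19 in Tfcp2l1, 7 of 58 in Nr5a2 and 0 of 1 in Nr0b1, against 9.05% of all such tiles. Day 0 values enter both the split and the difference, so the 2 are not independent.

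In log2 values the tiles became more alike in 3 of the 4 genes. The value of an empty tile was lower in the day 0 libraries than in those of day 2, so low tiles can spread further at day 0. The same SD over other genes was not computed. The SD over tiles of the group mean was 1.08 at day 2 and 1.95 at day 0 in Esrrb, 1.18 and 1.87 in Tfcp2l1, and 0.87 and 1.22 in Nr5a2. In Nr0b1 it was 1.56 at day 2 and 1.10 at day 0. Of the Esrrb tiles, 71 of 83 were above 0 log2 RPKM at day 2 and 45 at day 0, and in Nr5a2 58 of 62 at day 2 and 54 at day 0.

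**Figure D4:**
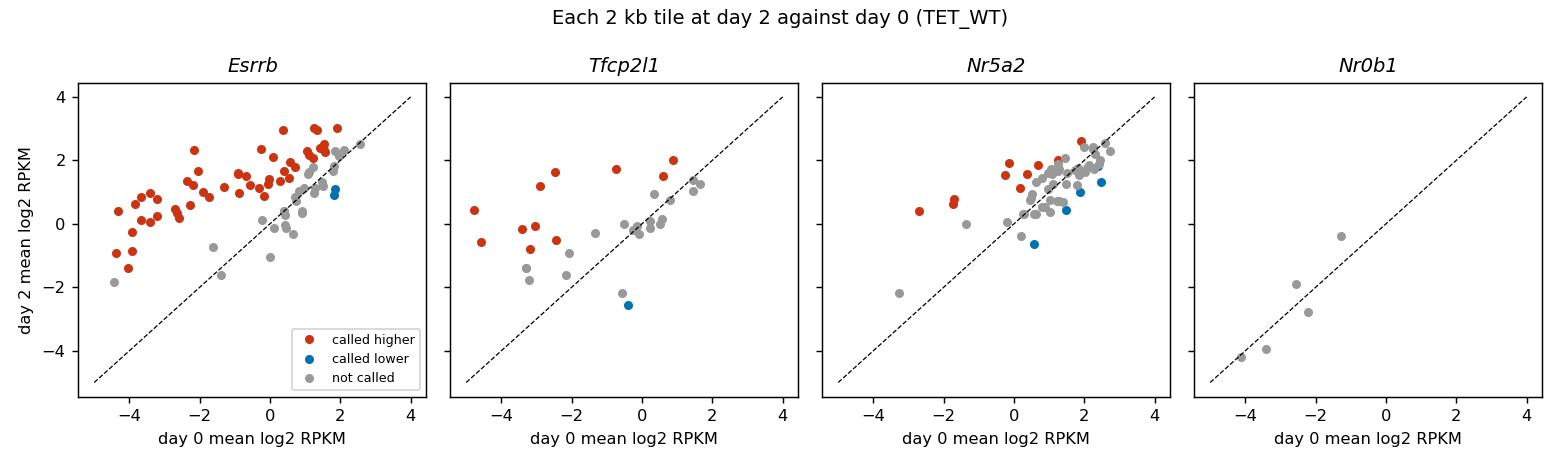
Mean log2 RPKM of each tile at TET_WT day 2 (vertical axis) against day 0 (horizontal axis) for the 4 genes, coloured by the call at day 2 against day 0; the dashed line marks equal values. Esrrb and Tfcp2l1 have 22 and 8 called tiles that started below −1.62, while most Nr5a2 tiles sit near the line at high values and the 5 Nr0b1 tiles near it at low values.

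The gain was larger inside the 2 genes than around them. The value of a gene minus the mean of its flanks, 2 to 50 kb outside, was called in 7.26% of 20691 genes, 5.07% higher and 2.19% lower, and in 2 of the 4 members, both higher. For Esrrb this difference of differences was 1.2 (SE 0.13, limma adjusted p = 0.00115), and for Tfcp2l1 1.19 (SE 0.15, limma adjusted p = 0.00218). For Nr5a2 it was 0.33 (SE 0.10, limma adjusted p = 0.0802) and for Nr0b1 −0.27 (SE 0.32, limma adjusted p = 0.671). The flanks of Esrrb themselves rose by 0.24 (SE 0.09, limma adjusted p = 0.0381), as did those of 21.6% of genes (25.4% were called in all, 3.78% lower), with 7 of 24 downstream tiles called higher and 3 of 24 upstream. The flanks of Tfcp2l1 had a difference of −0.08 and those of Nr5a2 −0.12, neither called. Clasp1, the only other measured protein-coding gene in these flanks, lies beside Tfcp2l1 and had a difference of 0.09 (limma adjusted p = 0.669).

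**Figure D5:**
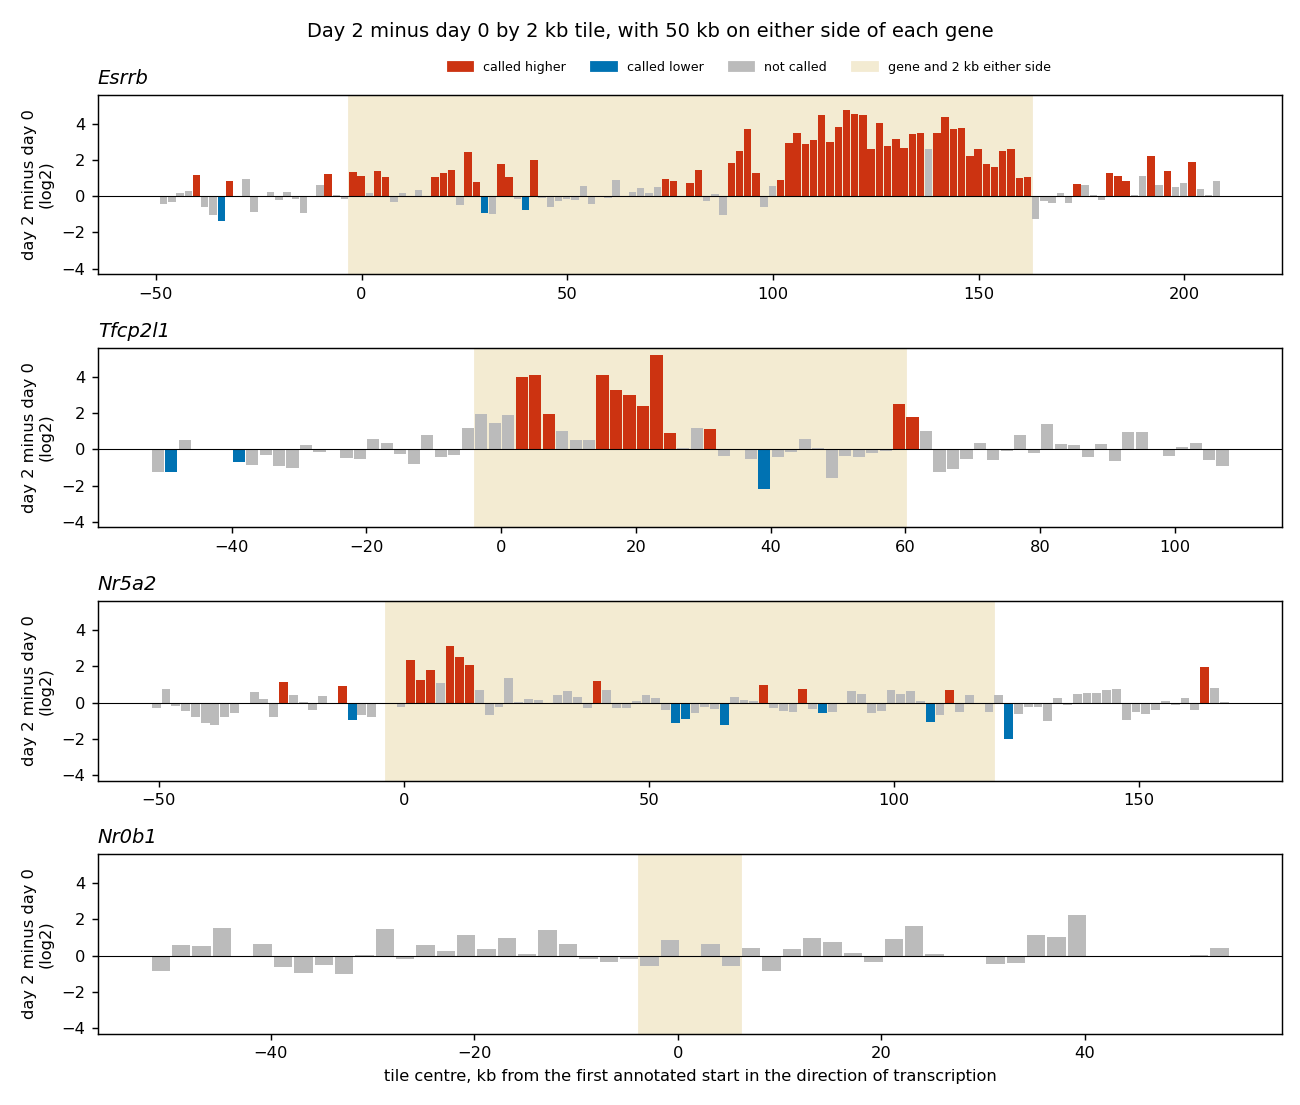
Difference at TET_WT day 2 minus day 0 (log2, vertical axis) for each 2 kb tile of the 4 genes and of 50 kb on either side, against the distance from the first start in kb; red bars were called higher, blue lower and grey neither, and the shaded span is the gene with 2 kb on either side. Red bars cover 36 of the 42 3′ tiles of Esrrb and 9 of the 16 5′ tiles of Tfcp2l1, and stand in 2 runs of 3 near the starts of Nr5a2, whose start tiles are grey; the highest value is 5.21, in Tfcp2l1.

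The step between day 1 and day 2 was the larger in Esrrb and Tfcp2l1, although the difference between steps was not tested. At day 1 against day 0, 0 of 20717 genes were called (0%, with 2551 at an unadjusted p under 0.05), so none of the 4 members was. The differences were 0.40 for Esrrb (limma adjusted p = 0.264), 0.44 for Tfcp2l1 (0.345), 0.07 for Nr5a2 (0.795) and 0.46 for Nr0b1 (0.724). The median was 0.09 over all genes and 0.19 over all tiles, of which 60.4% had a positive difference. Empty tiles carried −2.81 in day 1 replicate 2, against −5.63, −4.84 and −5.56 in the day 0 libraries. The part of this in the differences was not tested. Without day 0 replicate 2 the difference of Esrrb was 0.54 and passed (limma adjusted p = 0.0305). Of all tiles 0.601% were called higher and 0.409% lower (1.01% in all), and of the members' tiles 2, both in Esrrb and both inside the runs named above.

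At day 2 against day 1, 9.59% of genes (8.99% higher, 0.599% lower) and 2.96% of tiles (2.41% higher, 0.551% lower) were called, and 2 of the 4 members, both higher. Esrrb rose by 1.05 (SE 0.14, limma adjusted p = 0.000679). Tfcp2l1 rose by 0.66 (SE 0.18, limma adjusted p = 0.0356), a call that was lost without any 1 of 7 libraries (differences from 0.58 to 0.74, adjusted p 0.0521 to 0.156), among them both day 1 libraries and all 3 day 2 libraries of TET_WT. Nr5a2 had a difference of 0.14 (limma adjusted p = 0.405) and Nr0b1 −0.38 (limma adjusted p = 0.672). Tiles called higher numbered 29 in Esrrb, 5 in Tfcp2l1, 6 in Nr5a2 and 0 in Nr0b1, and 3 Esrrb tiles were called lower. After median centring of the libraries the Esrrb difference of 1.08 did not pass either (limma adjusted p = 0.0666).

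DNMT_WT at day 2 gave a second line at the same stage. Its gene values were 1.33, 1.27 and 1.14 for Esrrb, −0.07, −0.12 and −0.48 for Tfcp2l1, 1.11, 1.09 and 1.14 for Nr5a2, and −2.11, −2.47 and −2.98 for Nr0b1. Against TET_WT at day 2, 19% of genes were called (14.9% higher, 4.07% lower) and none of the 4. The differences were 0.18 for Esrrb (95% interval −0.08 to 0.45, limma adjusted p = 0.347), −0.20 for Tfcp2l1 (−0.55 to 0.15, 0.447), −0.11 for Nr5a2 (−0.29 to 0.08, 0.456) and 0.12 for Nr0b1 (−0.84 to 1.08, 0.894). Median centring turned the sign for Tfcp2l1 (0.02) and Nr5a2 (0.11). On the linear scale Tfcp2l1 was called lower in DNMT_WT (−0.27, limma adjusted p = 0.0333), with 30.8 ± 1.73 RPM in DNMT_WT and 37.0 ± 1.08 in TET_WT (SD, n = 3 each). A line, its culture and its library batch cannot be told apart here.

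The profiles along each gene were alike in the 2 lines. Spearman's rho over tile means was 0.888 in Esrrb (83 tiles), 0.821 in Tfcp2l1 (32) and 0.850 in Nr5a2 (62), across neighbouring tiles that share local sequence and the same libraries. The 18-tile run of Esrrb drew 39.6, 41.4 and 34.8 RPM in DNMT_WT, against 27.1, 27.3 and 23.8 in TET_WT at day 2. No tile of that run was called between the lines.

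Of the 182 member tiles, 5 were called between the lines, a share close to that of all tiles. Of all tiles 3.24% were called, 1% higher and 2.24% lower. In Esrrb the tile of the internal start was higher by 0.81 (SE 0.24, limma adjusted p = 0.0318) and the tile after it (chr12:86422001-86424000) by 2.26 (SE 0.45, limma adjusted p = 0.000212), with means of 1.55 in DNMT_WT and −0.71 in TET_WT. In Nr5a2 the outer tile of the run nearest the body (chr1:136946001-136948000) was higher by 1.2 (limma adjusted p = 0.000937), with means of 3.10 in DNMT_WT and 1.90 in TET_WT. Summed, that run drew 12.3, 12.8 and 14.8 RPM in DNMT_WT, against 4.95, 6.82 and 6.03 in TET_WT. The tile of the internal start beside it, low in TET_WT, held 35, 20 and 32 reads in DNMT_WT, against 3, 7 and 5 in TET_WT at day 2. Its difference of 2.45 (SE 0.81) did not pass (limma adjusted p = 0.0741). The 2 Nr5a2 tiles called lower, in the body and past the 3′ end, had differences of −1.07 and −0.82.

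Relatives of the members were measured in the same fit at day 2 against day 0. Of 46 other nuclear receptor genes, 10 were called higher and 1 lower, with a median of 0.11, beside 15.3% of all genes called higher and a median of 0.09. The 10 were Thra, Rara, Ppard, Nr1d1, Rxrb, Rxrg, Nr2e3, Esrra, Nr4a1 and Nr5a1, with differences from 0.32 (Ppard, a fatty acid sensor) to 1.44 (Nr1d1, a repressor of the circadian clock). Thra, a thyroid hormone receptor, had the smallest p (0.89, limma adjusted p = 9.74e-05). Thra and Nr1d1 overlap on chromosome 11, so their values share tiles. Nr1i2, a xenobiotic sensor, was called lower (−0.52, limma adjusted p = 0.0256), and Nr1d2, the paralog of Nr1d1, had the most negative difference (−0.57, limma adjusted p = 0.105). The close relatives of Esrrb had differences of 0.49 (Esrra, limma adjusted p = 0.0350) and −0.02 (Esrrg, 0.962). Nr5a1, the paralog of Nr5a2, rose by 0.71 (limma adjusted p = 0.00226), and Nr0b2, the paralog of Nr0b1, had 0.33 (limma adjusted p = 0.467).

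The gene lists were chosen with earlier results of these data known. Beside them, 15.3% of all genes were called higher and 2.51% lower, with a median difference of 0.09. Of the 5 other CP2 and grainyhead genes, Grhl3, an epidermal differentiation factor, rose by 1.42 (limma adjusted p = 2.08e-06) and Grhl2 by 0.34 (0.0154). Tfcp2, the closest relative of Tfcp2l1 here, fell by 0.39 (limma adjusted p = 0.0101). Ubp1 (−0.06) and Grhl1 (0.02) were not called. Among 16 partners in the naive network, 14 were called higher and 0 lower, with a median of 1.36. Tbx3 (3.36) and Tdh (1.78) had the smallest p, and Pou5f1, which encodes Oct4, had −0.32 (limma adjusted p = 0.615). Among 12 genes of LIF and WNT signalling and cofactors, 4 were called higher and 0 lower (median 0.28). They were Socs3, a feedback inhibitor of LIF signalling (2.06), Ncoa3, a coactivator that ESRRB binds (0.63), Tcf7l1, a repressor of Esrrb (0.35), and Il6st, the shared LIF co-receptor (0.30). Stat3, the effector of LIF, had −0.21 (limma adjusted p = 0.157).

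Of 8 markers of EpiLC, 3 were called higher (median 0.53), Foxd3 (1.54), Otx2 (0.69) and Fgf5 (0.59). Of 14 fibroblast and feeder markers 1 was called higher and 0 lower (median 0.04), Thy1 by 0.54 (limma adjusted p = 0.0149). Of all genes 15.3% were called higher and 2.51% lower. These are 5hmC differences and not transcript levels, and their part in the members' results was not tested.

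The genes whose centred values lay nearest to each member over the 11 libraries were found by root mean square difference. For Esrrb they were Grhl3 (0.11), Letmd1 (0.12) and Nanos3 (0.12), against a root mean square of 0.71 for Esrrb itself. For Tfcp2l1 they were Pfdn1 (0.13), Wnt5a (0.15) and Dnajb13 (0.16), against 0.46. For Nr5a2 they were Znrf1, Tmeff1 and Deptor (0.03 to 0.04), against 0.10. For Nr0b1 they were Uxt, Grpr and Cd34 (0.23 to 0.25), against 0.52.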

How the data were processed

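HMCP-seq values of 11 libraries (4 groups) were used. Per the submitters' processing notes, Trim Galore 0.6.5, cutadapt 2.3, Bowtie2 2.4.1 and GRCm38 were used; the counting tool is not given in the sources used here. The values are log2 RPKM per 2 kb tile as deposited by the authors. Reads were recovered as whole multiples within 0.1%; depth is given with the results, and counting error limits single tiles. Chromosomes 1 to 19 and X were used, without the 10% lowest and 0.1% highest means. Gene values average the tested tiles of the span plus 2 kb, at least 3. All 11 libraries entered 1 limma 3.58.1 fit (R 4.3.3, data.table, version 1.17.8; lmFit, eBayes with a variance trend), adjusted by Benjamini-Hochberg over all tiles or genes, two-sided, and tested on simulated data. Runs are 3 or more adjacent tiles called higher. The members, gene lists and comparisons were chosen with earlier results of these data known. Named genes were, per list, the 2 smallest p at day 2 against day 0 and the largest difference against the majority, and the 3 nearest per member; named tiles were the 3 largest gains, the most negative, the highest mean and the starts. Other tiles, relatives and whole sets of called genes were named after their values were seen. Alternatives covered scaling, filters, windows, empty tiles, variance model, depth, voom, the replicate block and single libraries. Promoter sequences are from RefSeq (GRCm38.p6), with all 4 members matched.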

Additional observations from a re-analysis of the deposited data

How the results depend on the processing

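At day 2 against day 0, Esrrb and Tfcp2l1 remained called higher under all alternatives run, with 0.88 to 1.54 for Esrrb and 0.57 to 1.19 for Tfcp2l1, and 1.34 to 1.59 and 1.02 to 1.19 with single libraries left out; Nr5a2 was not called in any (0.03 to 0.30; 0.16 to 0.26) and Nr0b1 ran from 0.07 to 0.49, and from −0.29 to 0.43 with libraries left out. Leaving out single libraries gave, at day 1 against day 0, 0.30 to 0.54 for Esrrb, −0.014 to 0.15 for Nr5a2 and −0.23 to 1.14 for Nr0b1. At day 2 against day 1 it gave 0.58 to 0.74 for Tfcp2l1 and −1.07 to 0.31 for Nr0b1, and between the lines −0.085 to 0.35 for Nr0b1. Median centring gave 1.08 for Esrrb and 0.70 for Tfcp2l1 at day 2 against day 1, neither called, and between the lines 0.016 for Tfcp2l1 and 0.11 for Nr5a2, with signs turned. The Tfcp2l1 call at day 2 against day 1 was also lost with 1 read added (0.53) and at equal depth (0.59). Between the lines Tfcp2l1 was called lower with linear means (−0.27) and voom (−0.27), and Nr0b1 turned to −0.061 with 20 kb windows, −0.24 with linear means, −0.52 at equal depth and −0.17 with voom. Nr0b1 at day 2 against day 1 was 0.23 with no extension and 0.32 with voom, and at day 1 against day 0 −0.11 with voom. Nr5a2 turned to −0.015 at day 1 against day 0 (20 kb windows), and at day 2 against day 1 to −0.024 (linear) and −0.041 (voom). Tiles called higher in Esrrb, Tfcp2l1 and Nr5a2 numbered 20, 4 and 4 without a variance trend and 20, 3 and 1 at equal depth, out of 9492 and 12956 in all. Tiles called lower ranged from 0 to 3 in Esrrb, 0 to 1 in Tfcp2l1 and 0 to 8 in Nr5a2, and from 1748 to 45452 over all tiles. With 1 day 1 library left, it was assumed to vary like the other groups. The causes were not tested.

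Replicate numbers did not pair the libraries: same-numbered libraries correlated from −0.29 to 0.30 in their deviations, with 2 of 15 pairs over 0.1. With the replicate block, the Tfcp2l1 difference at day 2 against day 1 was 0.65 and not called (limma adjusted p = 0.0742); no other call of the members changed. Nr0b1 had no value when only tiles at or above the median signal were kept. Of the tiles called higher in the 3 genes, fewer were called at equal depth, as above. The standard error of Nr0b1 was 0.44 with all reads and 0.27 at equal depth. At equal depth empty tiles carry the same value in every library, so the smaller error does not mean a more precise estimate.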
